A study of Mus musculus with 28 samples.

Results

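The genes described are the collagens, the other structural proteins of the extracellular matrix and the enzymes that fold and crosslink them, as measured in retroperitoneal fat of mice fed a conjugated linoleic acid (CLA). Of 43 genes named for this set, 41 were found among the 18194 genes tested, each as a probe set that names that gene alone. Where a gene had several such probe sets, the one with the highest mean over the 28 arrays was used. The remaining pair, Fbn1 and Loxl2, were not analysed here. Mice of the strain written C57BK/6J, aged 9 weeks, were given the control diet or a diet holding 0.5% trans-10 cis-12 CLA. Both retroperitoneal pads of 10 mice were pooled on days 1, 2, 3, 4, 7, 10 and 17 of feeding, which makes 14 groups of diet and day with 2 arrays each. All groups share strain, age and depot, and no genetic change is named. It is not clear from the labels whether a group's arrays were made from 1 pool or from separate ones, so p-values may measure technical spread only. A pad holds many cell types, and in such bulk RNA more cells of a type and more RNA per cell cannot be told apart.

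Fibrillar collagens are rods of triple helix that line up into the cables that give connective tissue its tensile strength. Basement membranes are thin sheets of type IV collagen, laminins, nidogens and perlecan, and in fat they wrap each adipocyte and each capillary. Collagen chains are hydroxylated and folded in the endoplasmic reticulum, secreted, trimmed, and then crosslinked by lysyl oxidases, while small proteoglycans and adhesive glycoproteins set how fibrils are spaced and how cells hold on to them. In adipose tissue most interstitial collagen is made by fibroblasts and adipocyte progenitors, whereas adipocytes, endothelium and mural cells all contribute to basement membranes.

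Promoter sequences were at hand for 26 of the 41 genes (RefSeq, build GRCm38.p6), and 4 are shown because they stand at the start of genes with contrasting courses. Col1a2 and Col3a1 are fibrillar collagens with a late rise, Thbs2 is a matricellular gene with one of the 3 largest rises of day 17, and Nid1 is a basement membrane gene that fell. Each line gives the 250 bases before the gene's start, 5′ to 3′ in the direction of transcription. Capitals mark each match, on either strand, of 3 promoter motifs. They are the core of the TATA box, searched as TATAAA, then the motif CCAAT and, last, the GC box in the form GGGCGG. The matches in these windows do not overlap.
Col1a2, chr6:4505368-4505617, plus strand: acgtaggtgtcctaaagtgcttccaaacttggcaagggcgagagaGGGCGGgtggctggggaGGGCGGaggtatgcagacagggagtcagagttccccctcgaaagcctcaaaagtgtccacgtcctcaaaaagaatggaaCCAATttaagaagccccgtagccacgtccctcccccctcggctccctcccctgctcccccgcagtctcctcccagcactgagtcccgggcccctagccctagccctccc
Col3a1, chr1:45311288-45311537, plus strand: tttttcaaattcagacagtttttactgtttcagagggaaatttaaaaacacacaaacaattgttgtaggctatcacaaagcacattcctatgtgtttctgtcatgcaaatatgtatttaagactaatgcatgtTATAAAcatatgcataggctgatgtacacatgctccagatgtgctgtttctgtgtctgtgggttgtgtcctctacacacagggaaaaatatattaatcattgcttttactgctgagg
Thbs2, chr17:14694263-14694512, minus strand: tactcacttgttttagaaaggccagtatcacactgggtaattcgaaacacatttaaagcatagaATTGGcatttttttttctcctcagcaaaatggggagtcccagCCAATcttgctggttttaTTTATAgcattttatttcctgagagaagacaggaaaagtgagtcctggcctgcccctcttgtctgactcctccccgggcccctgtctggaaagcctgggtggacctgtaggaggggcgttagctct
Nid1, chr13:13437352-13437601, plus strand: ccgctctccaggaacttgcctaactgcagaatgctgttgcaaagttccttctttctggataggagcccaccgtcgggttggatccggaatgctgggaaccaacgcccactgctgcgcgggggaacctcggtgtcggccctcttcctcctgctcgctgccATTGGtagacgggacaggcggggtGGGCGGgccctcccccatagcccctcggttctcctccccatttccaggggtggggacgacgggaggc
The Col3a1 and Thbs2 windows hold TATAAA, which 12.4% of the 32851 windows of the same length in the table hold. The Col1a2, Thbs2 and Nid1 windows hold CCAAT, present in 33.8% of all windows. The Col1a2 and Nid1 windows hold GGGCGG, present in 32.7% of all windows and in 58.1% of the 31 windows of these matrix genes. Of the same 31 windows, 16.1% hold TATAAA and 25.8% hold CCAAT. The TATAAA match begins 117 bases before the start in Col3a1 and 126 bases before it in Thbs2. None of the 6 basement membrane windows and 1 of the 4 fibrillar collagen windows holds TATAAA. Col4a1 and Col4a2 are transcribed away from each other on chromosome 8, and their windows overlap by 78 bases, so neither is printed. A match of letters is a description and not evidence of a bound factor.

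The values are log2 signals, so a difference of 1 is a 2-fold difference, and a signal is compared only with the same probe set on other arrays. The 28 arrays ran from 1.90 to 14.18, and the 2 arrays of a group correlated across genes at 0.979 to 0.995. The arrays numbered 1 stood apart most in 3 matrix genes on the first days in both diets. Col1a1, Serpinh1 and Fbln2 differed by more than 1 between the arrays of at least 3 groups. In at least 1 group, 9 of the 41 genes did so. Of the genes that rose on day 1, P4ha1, Tnc and Thbs1 also read lower that day on these arrays in both diets, and Lox read higher. For Serpinh1, the collagen chaperone HSP47, the CLA arrays read 9.33 and 11.30 on day 1 and 8.44 and 11.26 on day 2, and the control arrays 8.65 and 11.27 on day 1 and 9.25 and 11.01 on day 2. The first value of each pair is always the array numbered 1. On day 1, 3 of the 4 arrays also had the highest ratios of 3′ to 5′ Actb signal, a sign of RNA degradation or short labelled product, at 2.28 to 2.77 on the log2 scale against 0.77 to 1.87 on later days, while control day 1 replicate 2 read 1.50. The Gapdh ratio was 1.27 to 1.33 on the same 3 arrays and 0.15 on control day 1 replicate 2, against 0.15 to 1.20 on later days. The part of these ratios in the results of day 1 was not tested. Counts without the 4 arrays numbered 1 of days 1 and 2 are given beside those they change. That setting does not remove the difference in ratio on day 1. It leaves CLA replicate 2, at 2.28 for Actb, against control replicate 2, at 1.50. Diet and ratio therefore cannot be told apart on that day.

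Over all 7 days, 14 matrix genes rose with CLA and 6 fell. A gene is called when its adjusted p is under 0.05 in limma, and in the comparison over all days the day is the unit of replication. These are 34.1% and 14.6% of the 41, where 18.7% of all genes tested were higher and 19.8% lower, or 28.8% and 29% of the 9928 genes with a mean signal of at least 5, which all 41 reach. The median of the 41 was 0.18 and that of all genes -0.029. The rises were Col1a1, Col1a2, Col3a1, Col5a2, Col6a3, Col12a1, Bgn, Postn, Tnc, Thbs1, Thbs2, Lox, Loxl1 and P4ha1. The falls were Col8a1, Col4a2, Lama4, Nid1, Nid2 and Fbln1, so that 4 of the 6 belong to the basement membrane. The rises came down to 9 when day 10 was left out. Without single arrays the rises numbered 11 to 16 and the falls 5 to 8, and without the 4 arrays numbered 1 of days 1 and 2 there were 14 rises and 5 falls.

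On day 1 the early changes went both ways. Of the 41 genes 4 rose (9.76%), against 7.96% of all genes and 12% of the genes with a mean signal of at least 5, and 7 fell (17.1%), against 10.8% and 17.8%, so neither share exceeded that of other genes of that brightness. The largest rises were those of Thbs1 at 3.62, P4ha1 at 1.92 and Tnc at 1.57, and the fourth was Lox. The largest falls were those of Nid2 at -1.56, Col15a1 at -1.41 and Nid1 at -0.81, followed by Col18a1, Col6a1, Lama4 and Col5a1. The median of the 41 was -0.16 and that of all genes 0.005. Without CLA day 1 replicate 1, or without control day 1 replicate 2, the falls came down to 3, and without the arrays numbered 1 of days 1 and 2 to 4, with Col5a1, Col6a1, Nid1 and Col18a1 no longer called.

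On days 2 to 7 between 3 and 7 of the genes rose. The rises were 7.32%, 12.2%, 14.6% and 17.1% of the 41 on days 2, 3, 4 and 7, beside 7.43%, 16.8%, 19.5% and 13.3% of the genes with a mean of at least 5. These counts moved with the setting. Without the arrays numbered 1 of days 1 and 2, 7 rose on day 2, 7 on day 3 and 10 on day 4, beside 10.5%, 20.7% and 23.7% of the genes with a mean of at least 5, and 3, 6 and 6 fell, beside 10.7%, 22% and 21.3%. With a replicate block within each day, 5, 9 and 11 rose on days 2 to 4, beside 12.7%, 22.8% and 25.5%, and 2, 4 and 9 fell, beside 14.3%, 24.3% and 23.1%. On day 2, 3 rose (background 4.84%), namely Tnc at 1.25, Thbs1 at 0.80 and Postn at 0.55, and 1 fell (background 5.34%), Nid2 at -0.75. On day 3, 5 rose (background 11.3%), led by Tnc at 1.73, Thbs1 at 1.39 and Postn at 1.21, and 3 fell (background 11%), Nid2 at -0.74, Lama4 at -0.69 and Dcn at -0.57. On day 4, 6 rose (background 12.8%), led by Tnc at 1.34, Thbs1 at 1.25 and Postn at 1.03, and 2 fell (background 11.3%), Nid2 at -1.36 and Fmod at -1.14. On day 7, 7 rose (background 8.74%), led by Postn at 1.20, Lum at 1.17 and Thbs1 at 1.08, and 1 fell (background 8.57%), Nid2 at -0.80.

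These counts rest on single arrays. No rise of day 2 was called without CLA day 2 replicate 2 or without control day 2 replicate 2, and the fall was lost with either. The rises of day 3 came down to 3 without either control array of that day, and the falls to 0 without control day 3 replicate 1. The rises of day 4 came down to 3 without CLA day 4 replicate 2 or control day 4 replicate 1, and those of day 7 to 3 or 4 without CLA day 7 replicate 2 or either control array. The fall of day 7 was lost without CLA day 7 replicate 1. Without CLA day 2 replicate 1 there were 3 falls on day 2. When arrays of other days were left out, the falls of day 2 numbered 1 or 2 and those of day 4 ran from 1 to 4, since all groups share 1 estimate of spread. Of the 73 calls of single genes on single days, 43 were lost on leaving out at least 1 single array, 4 of them for more than 10 different arrays. These are Thbs1 on day 2, lost on leaving out any 1 of 19 arrays (0.46 to 0.95), Fmod on day 4, 16 arrays (-1.43 to -0.84), Col6a3 on day 7, 16 arrays (0.54 to 0.65), and Col5a2 on day 4, 11 arrays (0.36 to 0.64).

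The rises were more frequent on days 10 and 17. On day 10, 16 of the 41 rose (39%), where 10% of all genes and 15.4% of the genes with a mean of at least 5 were higher, and only Nid2 fell (background 10.2%). On day 17, again 16 rose (39%), where 11.5% of all genes and 17.8% of those with a mean of at least 5 were higher, and only Nid2 fell (background 8.78%). The largest rises of day 10 were Thbs1 at 2.25, Postn at 1.77 and Lum at 1.73, and those of day 17 Lum at 2.15, Postn at 2.12 and Thbs2 at 1.86. The median of the 41 was 0.47 on day 10 and 0.58 on day 17, against -0.07 and -0.04 for all genes. Of the 41, 20 rose on at least 1 day, 9 fell on at least 1 day, 3 did both on different days, and 15 were called on no day. Calls on at least 1 day were not counted over all genes, so these numbers describe the 41 genes and cannot be set against a background. Without control day 10 replicate 1 there were 9 rises on day 10, and without CLA day 17 replicate 1 or control day 17 replicate 1 there were 10 on day 17. The fall of Nid2 was lost on day 10 without CLA day 10 replicate 2 or control day 10 replicate 2, and on day 17 without CLA day 17 replicate 2 or control day 17 replicate 1.

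**Figure D1:**
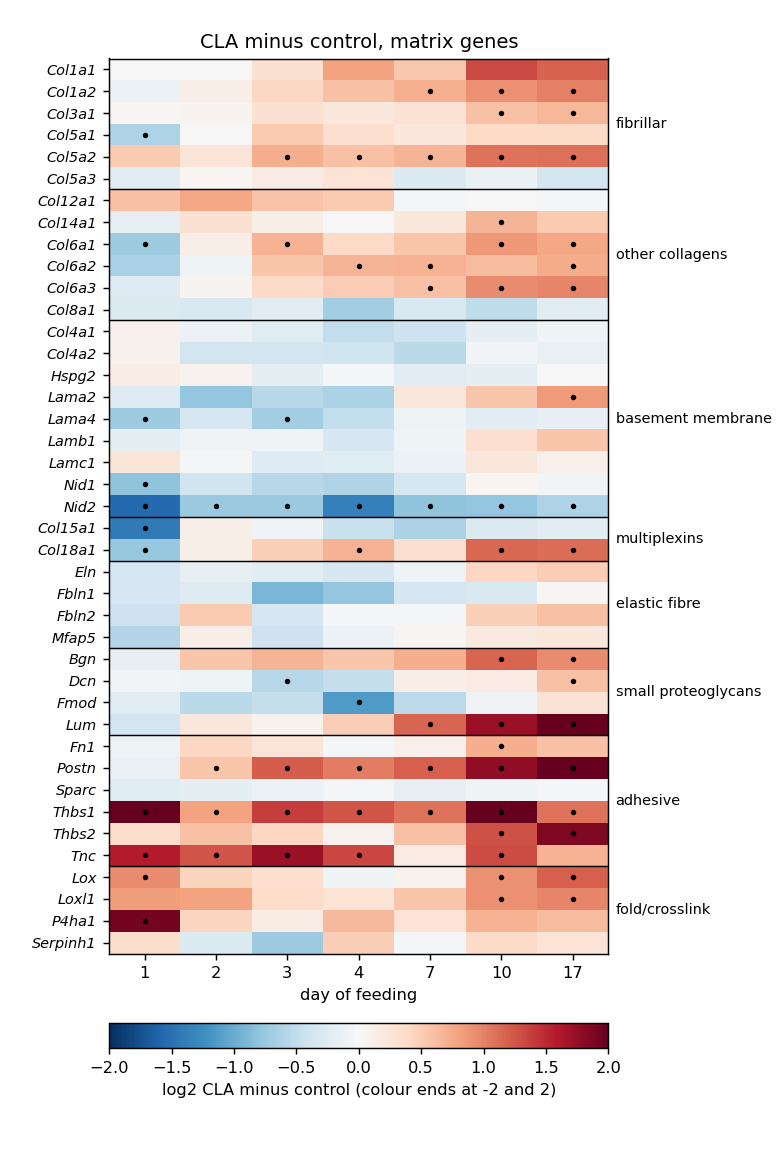
CLA minus control on the log2 scale for the 41 matrix genes (rows, grouped by role) on each day of feeding (columns), red for higher and blue for lower with CLA, and a dot where the adjusted p of limma was under 0.05. Thbs1 and Tnc are red from day 1, the fibrillar collagens other than Col5a3 and the type VI collagens, Lum, Postn and Thbs2 are red on days 10 and 17, and Nid2 is blue on all days.

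The class counts over all 7 days stand beside 18.7% of all genes higher and 19.8% lower. For genes with a mean of at least 5 these shares were 28.8% and 29%, and each class holds few genes. Among the fibrillar collagens, 4 of 6 rose over all 7 days and none fell. The chains of type I collagen, the main fibril former, were both among them. Col1a1 read 7.82 and 9.63 on day 1, 8.70 and 10.13 on day 2, 9.62 and 10.16 on day 3, 10.03 and 10.48 on day 4, 10.01 and 10.01 on day 7, 9.59 and 10.54 on day 10 and 10.45 and 10.08 on day 17 on the control diet. With CLA Col1a1 read 7.77 and 9.71 on day 1, 8.42 and 10.38 on day 2, 9.55 and 10.85 on day 3, 11.06 and 11.04 on day 4, 10.37 and 10.72 on day 7, 11.03 and 11.75 on day 10 and 11.62 and 11.26 on day 17. On days 1 and 2 the arrays of the diets overlapped and the number of the array made more difference than the diet, while on days 4, 7, 10 and 17 both CLA arrays lay above both control arrays. Col1a1 rose by 0.59 ± 0.17 (standard error over 7 days, adjusted p = 0.0235) over all days, from a mean of 9.80 to 10.39, and was called on no single day. Its call was lost in 12 other settings, among them leaving out CLA day 1 replicate 2 (0.45), control day 1 replicate 1 (0.46), CLA day 2 replicate 2 (0.45), control day 2 replicate 1 (0.49) and CLA day 3 replicate 2 (0.50). A second probe set of Col1a1 gave 0.27. The gaps between Col1a1 arrays of the same diet on days 1 and 2 enter the 1 estimate of spread used for every single day.

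Col1a2, the second chain of type I collagen, rose by 0.52 ± 0.13 (standard error over 7 days, adjusted p = 0.0135) and was called on days 7, 10 and 17 (0.71 on day 7, 0.92 on day 10, 1.00 on day 17). Its other probe sets gave 0.81 and, close to background with a mean of 2.96, 0.28. Col3a1 read 13.21 and 13.23 on day 1, 13.31 and 13.34 on day 2, 13.29 and 13.20 on day 3, 13.13 and 13.41 on day 4, 13.32 and 13.36 on day 7, 13.31 and 13.34 on day 10 and 13.36 and 13.24 on day 17 on the control diet. With CLA Col3a1 read 13.13 and 13.40 on day 1, 13.37 and 13.40 on day 2, 13.50 and 13.59 on day 3, 13.52 and 13.44 on day 4, 13.51 and 13.75 on day 7, 13.96 and 13.87 on day 10 and 14.03 and 13.89 on day 17. Col3a1, the chain of type III collagen of soft connective tissue, thus overlapped between the diets on day 1, lay close on day 2, and read higher on both CLA arrays than on all control arrays on days 3, 4, 7, 10 and 17. It rose by 0.31 ± 0.09 (standard error over 7 days, adjusted p = 0.0202), and on day 17 by 0.66 ± 0.13 (standard error, 2 arrays of each diet, adjusted p = 0.000828). This probe set, with a mean of 13.44, lies near the top of the scale, and the other probe set of Col3a1, with a mean of 10.07, gave 0.70 over all days and 1.42 on day 17.

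Type V collagen starts fibrils and limits their width, and its chains differed. Col5a2 rose by 0.71 ± 0.11 (standard error over 7 days, adjusted p = 0.000765) and was called on days 3, 4, 7, 10 and 17, with 1.10 on day 17. Col5a1 fell on day 1 (-0.61), was above 0 on the other days without a call and came to 0.18 over all days. Col5a3 was not called, at -0.08 over all days and -0.37 on day 17. The median of the 6 fibrillar genes was -0.06 on day 1, 0.05 on day 2, 0.37 on day 3, 0.46 on day 4, 0.41 on day 7, 0.75 on day 10 and 0.83 on day 17. The median of day 1 was 0.02 after median centring and after quantile normalisation, so it has no settled sign.

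**Figure D2:**
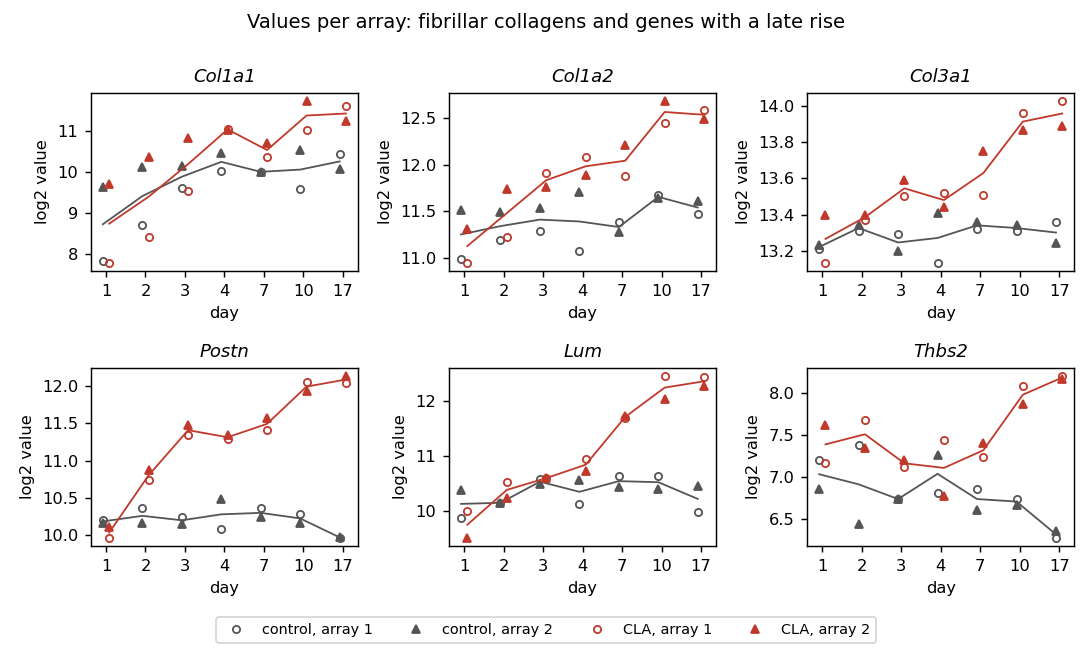
Log2 value of each array against day of feeding for Col1a1, Col1a2, Col3a1, Postn, Lum and Thbs2 (control grey, CLA red, open circles for arrays numbered 1, filled triangles for those numbered 2, lines through the means of the 2 arrays). The diets lie close together on day 1 in each panel and are apart on days 10 and 17, and the open circles of Col1a1 are low on days 1 and 2 in both diets.

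Of the fibril-associated and other interstitial collagens, 2 of 6 rose over all 7 days (background 18.7%) and 1 fell (background 19.8%). Type VI collagen forms a beaded mesh between fibrils and cells, and its chains shared a course from below to above control. Col6a1 fell on day 1 (-0.71) and rose on days 3, 10 and 17 (0.69 on day 3, 0.86 on day 10, 0.77 on day 17). Col6a2 read -0.65 on day 1 without a call and rose on days 4, 7 and 17 (0.68 on day 4, 0.70 on day 7, 0.74 on day 17). Col6a3 rose on days 7, 10 and 17 (0.59 on day 7, 0.94 on day 10, 0.98 on day 17) and over all days by 0.46 ± 0.15 (standard error over 7 days, adjusted p = 0.0348), a call lost without CLA day 1 replicate 2 (0.41), control day 1 replicate 1 (0.43) or CLA day 2 replicate 2 (0.43). The rises of the type VI chains began no earlier than day 3.

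The FACIT collagens sit on the surface of fibrils. Col12a1 rose over all days by 0.34 ± 0.12 (standard error over 7 days, adjusted p = 0.0447), with its values on days 1 to 4 (0.58 on day 1, 0.77 on day 2, 0.57 on day 3, 0.52 on day 4) above those on days 7 to 17 (-0.03 on day 7, 0.01 on day 10, -0.04 on day 17), and no single day was called. That call was lost in 18 other settings, and the other probe sets gave 0.36, -0.21 and -0.16. Col14a1 rose on day 10 alone (0.68). Its other probe sets did not share this rise. The one with a mean of 6.92 gave 0.04 there, and the most variable one, with a mean of 3.42, gave -0.38. The call was also lost with the mean of all its probe sets. Col8a1, a short-chain collagen of vessels, fell over all days by 0.36 ± 0.07 (standard error over 7 days, adjusted p = 0.00291) at a low signal of 5.05 with CLA and 5.41 without.

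Among the basement membrane genes there were falls and no rise over all days. Of 9, 4 fell over all 7 days (background 19.8%, or 29% at a mean of at least 5) and none rose. On day 1, 3 fell (background 10.8%, or 17.8% at a mean of at least 5). Over all days 8 of the 9 were below 0. Nidogens bridge the laminin and collagen IV networks. Nid2 read 8.12 and 7.83 on day 1, 7.84 and 7.92 on day 2, 7.85 and 7.83 on day 3, 7.76 and 7.78 on day 4, 7.84 and 7.78 on day 7, 7.57 and 7.79 on day 10 and 7.87 and 7.64 on day 17 on the control diet. With CLA Nid2 read 6.68 and 6.15 on day 1, 7.42 and 6.84 on day 2, 7.23 and 6.97 on day 3, 6.55 and 6.27 on day 4, 6.99 and 7.04 on day 7, 7.02 and 6.79 on day 10 and 7.27 and 6.99 on day 17. All 14 CLA arrays of Nid2 lay below all 14 control arrays. Nid2 was called on each of the 7 days. It fell by 1.56 ± 0.20 (standard error, 2 arrays of each diet, adjusted p = 1.18e-05) on day 1, and fell by 0.94 ± 0.12 (standard error over 7 days, adjusted p = 0.000347) over all days.

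Nid1 read 11.57 and 11.73 on day 1, 11.10 and 11.65 on day 2, 11.58 and 11.52 on day 3, 11.27 and 11.71 on day 4, 11.61 and 11.78 on day 7, 11.54 and 11.69 on day 10 and 11.64 and 11.66 on day 17 on the control diet. With CLA Nid1 read 10.60 and 11.08 on day 1, 10.82 and 11.13 on day 2, 10.75 and 11.23 on day 3, 11.05 and 10.72 on day 4, 11.22 and 11.47 on day 7, 11.91 and 11.40 on day 10 and 11.50 and 11.70 on day 17. For Nid1 the CLA arrays lay below both control arrays of their day on days 1, 3, 4 and 7, and the diets overlapped on days 2, 10 and 17. Nid1 fell by 0.39 ± 0.10 (standard error over 7 days, adjusted p = 0.016), and was called on day 1 as a single day. Its other probe sets gave -0.69 and -0.38 over all days. Lama4 read 9.08 and 9.56 on day 1, 8.83 and 9.41 on day 2, 9.31 and 9.37 on day 3, 9.03 and 9.54 on day 4, 9.04 and 9.45 on day 7, 9.47 and 9.63 on day 10 and 9.39 and 9.60 on day 17 on the control diet. With CLA Lama4 read 8.48 and 8.74 on day 1, 8.70 and 8.86 on day 2, 8.53 and 8.76 on day 3, 8.89 and 8.68 on day 4, 9.18 and 9.11 on day 7, 9.27 and 9.41 on day 10 and 9.33 and 9.33 on day 17. The laminin chain of endothelial and adipocyte basement membranes, Lama4, was below both control arrays on days 1, 3, 4, 10 and 17 and overlapped them on days 2 and 7. It fell by 0.39 ± 0.09 (standard error over 7 days, adjusted p = 0.00788), and on single days on day 1 and on day 3.

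Type IV collagen is the scaffold of the sheet. Col4a1 read 12.06 and 11.91 on day 1, 11.79 and 12.06 on day 2, 11.44 and 12.10 on day 3, 11.79 and 11.82 on day 4, 11.41 and 12.08 on day 7, 11.85 and 11.87 on day 10 and 12.05 and 11.84 on day 17 on the control diet. With CLA Col4a1 read 11.94 and 12.19 on day 1, 11.66 and 11.94 on day 2, 11.24 and 11.81 on day 3, 11.35 and 11.27 on day 4, 11.13 and 11.52 on day 7, 11.55 and 11.81 on day 10 and 11.92 and 11.80 on day 17. The diets overlapped in Col4a1 except on days 4 and 10, when both CLA arrays were lower. It came to -0.21 ± 0.08 over all days (standard error over 7 days, adjusted p = 0.0558) and did not pass, and its other probe set gave -0.46. Col4a2 read 10.67 and 10.59 on day 1, 10.17 and 10.78 on day 2, 10.13 and 10.60 on day 3, 10.45 and 10.50 on day 4, 10.31 and 10.61 on day 7, 10.36 and 10.36 on day 10 and 10.85 and 10.56 on day 17 on the control diet. With CLA Col4a2 read 10.57 and 10.86 on day 1, 9.83 and 10.40 on day 2, 9.71 and 10.28 on day 3, 10.04 and 10.11 on day 4, 9.69 and 10.16 on day 7, 10.05 and 10.55 on day 10 and 10.64 and 10.46 on day 17. The CLA arrays of Col4a2, the partner chain of Col4a1, were below both controls on days 4 and 7 but overlapped them on other days. Col4a2 fell by 0.26 ± 0.08 (standard error over 7 days, adjusted p = 0.0334), a small difference whose call was lost in 16 other settings, such as leaving out CLA day 1 replicate 1 (-0.24), CLA day 2 replicate 1 (-0.22) or control day 2 replicate 2 (-0.21).

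The remaining laminins and perlecan did not pass over all days. Lama2, the heavy chain of merosin around muscle, nerve and fat cells, moved from -0.77 on day 2 and -0.64 on day 4, neither called, to a rise of 0.85 ± 0.24 (standard error, 2 arrays of each diet, adjusted p = 0.0162) on day 17. Lamb1 and Lamc1, the shared light chains, came to 0.02 and -0.01 over all days, with other probe sets at -0.10, -0.35 and, close to background with a mean of 3.07, -0.00 for Lamb1, and at -0.55 for Lamc1. Hspg2, which encodes perlecan, came to -0.06, with 0.15 on day 1 and -0.20 on day 3. Its other probe set, with a mean of 6.78, gave -0.28 over all days, -0.76 on day 1 and -0.85 on day 3. With the probe sets used, none of these 3 genes was called on any day.

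Fibrillar and basement membrane genes stood further apart from day 3 on than on days 1 and 2. The median of the 9 basement membrane genes was -0.20 on day 1, -0.34 on day 2, -0.37 on day 3, -0.49 on day 4, -0.23 on day 7, -0.06 on day 10 and -0.05 on day 17. The fibrillar median lay above it by 0.15, 0.39, 0.74, 0.95, 0.65, 0.81 and 0.88 on the 7 days in turn, and by 0.63 over all days. On days 3 and 4 the gap came from both classes, while on days 10 and 17 the basement membrane median was near 0 and the fibrillar one was not. This nearness to 0 depends on the probe sets used. On day 17 the most variable probe set read lower for Lama4 (-0.92), Lamc1 (-0.70), Col4a1 (-0.35), Nid1 (-0.35) and Lamb1 (-0.17). It read higher for Hspg2 (0.10), and was the one used for Col4a2, Lama2 and Nid2.

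Taken array by array, the mean of the 6 fibrillar genes minus that of the 9 basement membrane genes was 0.78 to 1.40 on the 14 control arrays. On the CLA arrays it was 1.06 and 1.50 on day 1, 1.36 and 1.83 on day 2, 2.03 and 2.09 on day 3, 2.24 and 2.35 on day 4, 1.80 and 1.90 on day 7, 1.83 and 2.20 on day 10, and 1.92 and 1.95 on day 17. From day 3 on every CLA array lay above all 14 control arrays, by more than the SD within groups of 0.18, and on day 1 the diets overlapped. On day 2 both CLA arrays lay above the control arrays of that day, at 1.20 and 1.21. The lower of them, at 1.36, did not exceed the highest control array, at 1.40. The size of this difference sets different probe sets side by side and has no meaning of its own, only its change between arrays has. The sign of the gap of day 1 depends on 1 array, since it was -0.37 without CLA day 1 replicate 2, -0.43 without control day 1 replicate 1, 0.59 without CLA day 1 replicate 1 and 0.60 without control day 1 replicate 2. On day 2 it was 0.60 without control day 2 replicate 1 and 0.61 without the arrays numbered 1 of days 1 and 2.

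**Figure D3:**
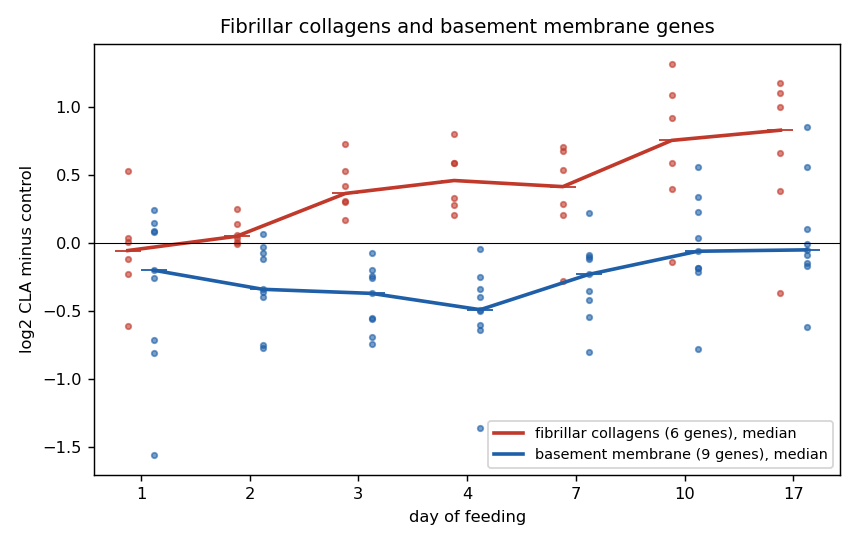
CLA minus control on the log2 scale by day for each of the 6 fibrillar collagen genes (red points) and 9 basement membrane genes (blue points), with lines through the class medians. The medians are 0.15 apart on day 1 and between 0.65 and 0.95 apart from day 3 on, and the lowest blue point of each day from 1 to 17 is Nid2, except on day 2.

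The multiplexins are collagens of the basement membrane zone that carry the endostatin-type end domains. Both fell on day 1 (background 10.8%, or 17.8% at a mean of at least 5). Col15a1 fell there by 1.41 ± 0.28 (standard error, 2 arrays of each diet, adjusted p = 0.00117) and was called on no other day. Col18a1 fell by 0.76 ± 0.18 (standard error, 2 arrays of each diet, adjusted p = 0.00524) on day 1 and rose on days 4, 10 and 17 (0.69 on day 4, 1.15 on day 10, 1.12 on day 17), so over all days it came to 0.44 without a call. With both in the basement membrane class the gap of day 2 would be 0.18.

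Elastic fibre genes changed little. Fbln1 read 5.45 and 6.90 on day 1, 6.03 and 6.68 on day 2, 7.02 and 6.96 on day 3, 6.85 and 7.04 on day 4, 6.54 and 6.89 on day 7, 7.20 and 7.00 on day 10 and 6.90 and 6.77 on day 17 on the control diet. With CLA Fbln1 read 5.58 and 6.11 on day 1, 6.03 and 6.17 on day 2, 5.72 and 6.42 on day 3, 6.48 and 5.88 on day 4, 6.46 and 6.28 on day 7, 6.77 and 6.82 on day 10 and 7.13 and 6.59 on day 17. Fibulin-1, encoded by Fbln1, thus read lower on both CLA arrays on days 3, 4, 7 and 10 and overlapped on days 1, 2 and 17. It fell by 0.41 ± 0.11 (standard error over 7 days, adjusted p = 0.0154), a call lost without control day 1 replicate 2 (-0.31). Eln, which encodes elastin, Fbln2 and the microfibril gene Mfap5 were called on no day, with 0.49, 0.59 and 0.21 on day 17.

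The small leucine-rich proteoglycans, which bind fibrils and set their spacing, were led by lumican. Lum read 9.87 and 10.38 on day 1, 10.14 and 10.15 on day 2, 10.57 and 10.49 on day 3, 10.13 and 10.56 on day 4, 10.64 and 10.44 on day 7, 10.64 and 10.40 on day 10 and 9.97 and 10.46 on day 17 on the control diet. With CLA Lum read 9.99 and 9.50 on day 1, 10.52 and 10.24 on day 2, 10.59 and 10.60 on day 3, 10.95 and 10.73 on day 4, 11.69 and 11.73 on day 7, 12.46 and 12.03 on day 10 and 12.44 and 12.28 on day 17. The Lum arrays of the diets overlapped on day 1 and lay close on days 2 and 3, and on days 4, 7, 10 and 17 both CLA arrays were above all control arrays. Lum rose on day 7 by 1.17 ± 0.21 (standard error, 2 arrays of each diet, adjusted p = 0.000505), on day 10 by 1.73 ± 0.21 (adjusted p = 9.02e-06) and on day 17 by 2.15 ± 0.21 (adjusted p = 7.28e-07), and over all days came to 0.78 ± 0.29 (standard error over 7 days, adjusted p = 0.0656) without a call. Bgn, which encodes biglycan, rose by 0.64 ± 0.14 (standard error over 7 days, adjusted p = 0.00553), and on days 10 and 17 (1.17 on day 10, 0.94 on day 17). Dcn, which encodes decorin, fell on day 3 (-0.57) and rose on day 17 (0.58). Fmod, which encodes fibromodulin, fell on day 4 alone (-1.14), one of the calls lost on leaving out any 1 of 16 arrays.

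The adhesive and matricellular proteins held the largest rises. Over all 7 days 4 of 6 rose (background 18.7%, or 28.8% at a mean of at least 5). Thrombospondin-1, from Thbs1, is secreted by platelets, stromal cells and macrophages and can release TGF-beta from its latent complex. Thbs1 read 4.78 and 5.19 on day 1, 5.88 and 5.19 on day 2, 5.40 and 4.84 on day 3, 5.47 and 5.58 on day 4, 5.46 and 5.57 on day 7, 5.04 and 5.19 on day 10 and 5.34 and 5.43 on day 17 on the control diet. With CLA Thbs1 read 8.31 and 8.90 on day 1, 6.18 and 6.49 on day 2, 6.56 and 6.46 on day 3, 6.90 and 6.64 on day 4, 6.90 and 6.30 on day 7, 7.21 and 7.51 on day 10 and 6.37 and 6.56 on day 17. All CLA arrays of Thbs1 stood above all control arrays, those of day 1 the furthest. Thbs1 rose by 3.62 ± 0.25 (standard error, 2 arrays of each diet, adjusted p = 1.66e-08) on day 1, by 2.25 ± 0.25 (adjusted p = 2.97e-06) on day 10, on each of the other days too, and by 1.64 ± 0.31 (standard error over 7 days, adjusted p = 0.00295) over all days. Its second probe set gave 2.10 on day 1 and 0.92 over all days.

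Tenascin-C, from Tnc, is an adhesion-modulating protein of wounds and developing tissue. Tnc read 4.77 and 4.96 on day 1, 6.53 and 5.64 on day 2, 5.05 and 5.23 on day 3, 5.38 and 5.60 on day 4, 5.25 and 5.47 on day 7, 4.95 and 5.20 on day 10 and 4.71 and 4.86 on day 17 on the control diet. With CLA Tnc read 5.76 and 7.12 on day 1, 7.14 and 7.53 on day 2, 6.84 and 6.89 on day 3, 7.13 and 6.54 on day 4, 5.37 and 5.70 on day 7, 6.33 and 6.45 on day 10 and 5.73 and 5.24 on day 17. Both CLA arrays of Tnc were above both control arrays on every day but day 7, where the diets overlapped. Tnc rose on days 1, 2, 3, 4 and 10 (1.57 on day 1, 1.25 on day 2, 1.73 on day 3, 1.34 on day 4, 1.31 on day 10) and over all days by 1.16 ± 0.17 (standard error over 7 days, adjusted p = 0.00083). A second probe set, close to background with a mean of 2.66, gave -0.06.

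Periostin, from Postn, is a matricellular protein of collagen-rich tissue that assists collagen crosslinking. Postn read 10.21 and 10.16 on day 1, 10.36 and 10.16 on day 2, 10.25 and 10.15 on day 3, 10.08 and 10.48 on day 4, 10.36 and 10.24 on day 7, 10.28 and 10.17 on day 10 and 9.96 and 9.98 on day 17 on the control diet. With CLA Postn read 9.96 and 10.11 on day 1, 10.74 and 10.87 on day 2, 11.34 and 11.48 on day 3, 11.29 and 11.34 on day 4, 11.41 and 11.58 on day 7, 12.06 and 11.93 on day 10 and 12.04 and 12.14 on day 17. On day 1 the CLA arrays lay just below the control arrays, and from day 2 on both CLA arrays lay above all control arrays. Postn rose on each day from day 2, by 0.55 ± 0.14 (standard error, 2 arrays of each diet, adjusted p = 0.0136) on day 2 and by 2.12 ± 0.14 (adjusted p = 4.02e-09) on day 17, and over all days by 1.10 ± 0.24 (standard error over 7 days, adjusted p = 0.00575).

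Thrombospondin-2, from Thbs2, is a regulator of fibril assembly and vessel growth. Thbs2 read 7.20 and 6.86 on day 1, 7.38 and 6.44 on day 2, 6.74 and 6.73 on day 3, 6.81 and 7.26 on day 4, 6.86 and 6.61 on day 7, 6.74 and 6.67 on day 10 and 6.27 and 6.36 on day 17 on the control diet. With CLA Thbs2 read 7.16 and 7.61 on day 1, 7.67 and 7.34 on day 2, 7.12 and 7.20 on day 3, 7.44 and 6.77 on day 4, 7.23 and 7.40 on day 7, 8.08 and 7.87 on day 10 and 8.20 and 8.16 on day 17. In Thbs2 the diets overlapped on days 1, 2 and 4, and on days 10 and 17 the CLA arrays were above all control arrays. Thbs2 rose by 0.74 ± 0.20 (standard error over 7 days, adjusted p = 0.0164) over all days and on days 10 and 17 (1.27 on day 10, 1.86 on day 17). Its other probe sets gave 0.70 and 1.09 over all days and 1.67 and 1.88 on day 17. On day 1 they gave 0.54 and 1.70, where the probe set used gave 0.35.

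Fibronectin, from Fn1, is the provisional matrix on which collagen is laid down. Fn1 read 9.96 and 10.02 on day 1, 10.42 and 10.04 on day 2, 10.32 and 9.95 on day 3, 9.99 and 10.32 on day 4, 10.42 and 10.27 on day 7, 9.72 and 10.26 on day 10 and 10.08 and 10.09 on day 17 on the control diet. With CLA Fn1 read 9.63 and 10.14 on day 1, 10.60 and 10.70 on day 2, 10.36 and 10.42 on day 3, 10.17 and 10.10 on day 4, 10.54 and 10.36 on day 7, 10.96 and 10.46 on day 10 and 10.79 and 10.55 on day 17. The diets overlapped in Fn1 on days 1, 4 and 7, and both CLA arrays were higher on days 2, 3, 10 and 17. Fn1 rose on day 10 by 0.72 ± 0.21 (standard error, 2 arrays of each diet, adjusted p = 0.0192) and came to 0.28 ± 0.11 over all days (standard error over 7 days, adjusted p = 0.0678). Sparc, which encodes the collagen-binding protein osteonectin, was called on no day and ran from -0.24 to -0.03.

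**Figure D4:**
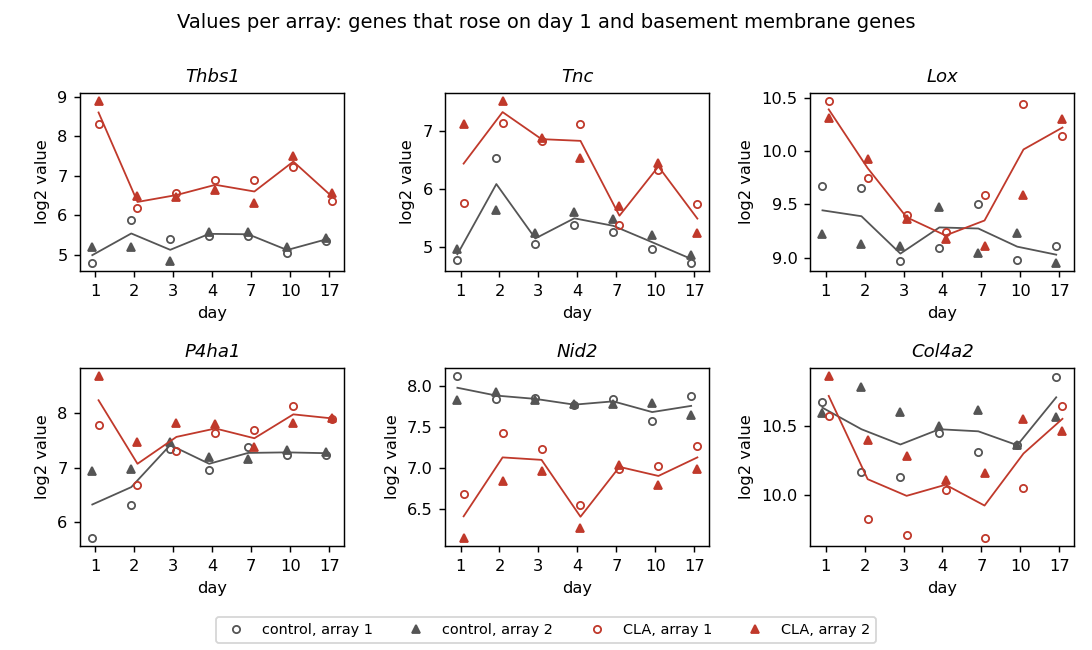
Log2 value of each array against day of feeding for Thbs1, Tnc, Lox, P4ha1, Nid2 and Col4a2 (control grey, CLA red, open circles for arrays numbered 1, filled triangles for those numbered 2, lines through the means of the 2 arrays). Thbs1 and P4ha1 with CLA peak on day 1, Lox is high on days 1 and 17, and the CLA arrays of Nid2 lie below all control arrays.

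Of the folding and crosslinking enzymes, 3 of 4 rose over all 7 days (background 18.7%, or 28.8% at a mean of at least 5). Lysyl oxidase, from Lox, makes the aldehydes from which crosslinks form. Lox read 9.67 and 9.22 on day 1, 9.65 and 9.13 on day 2, 8.97 and 9.11 on day 3, 9.09 and 9.48 on day 4, 9.50 and 9.05 on day 7, 8.98 and 9.23 on day 10 and 9.11 and 8.95 on day 17 on the control diet. With CLA Lox read 10.47 and 10.31 on day 1, 9.75 and 9.93 on day 2, 9.40 and 9.36 on day 3, 9.24 and 9.18 on day 4, 9.59 and 9.11 on day 7, 10.44 and 9.59 on day 10 and 10.14 and 10.30 on day 17. Both CLA arrays of Lox lay above both control arrays on days 1, 2, 3, 10 and 17, and the diets overlapped on days 4 and 7. Lox rose on day 1 by 0.94 ± 0.25 (standard error, 2 arrays of each diet, adjusted p = 0.0104), on day 10 by 0.91 ± 0.25 (adjusted p = 0.0124), on day 17 by 1.19 ± 0.25 (adjusted p = 0.00156) and over all days by 0.55 ± 0.16 (standard error over 7 days, adjusted p = 0.021), with 0.20 and 0.05 in its other probe sets. Loxl1, the elastin-associated lysyl oxidase, rose by 0.68 ± 0.10 (standard error over 7 days, adjusted p = 0.000626) and on days 10 and 17. P4ha1, the prolyl hydroxylase subunit that stabilises the triple helix and is known to respond to hypoxia, rose on day 1 by 1.92 ± 0.34 (standard error, 2 arrays of each diet, adjusted p = 0.000467) and over all days by 0.68 ± 0.19 (standard error over 7 days, adjusted p = 0.0187). Its other, most variable probe set gave 1.09 and 0.27, and both calls were lost with it. The call over all days was also lost with the mean of its probe sets. On day 1 P4ha1 read 5.70 and 6.94 on control and 7.79 and 8.69 with CLA. Its control arrays of days 3 to 17 read 6.95 to 7.48. Serpinh1 was called on no day, and its arrays numbered 1 were low in both diets on days 1 and 2.

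The effect of CLA differed between days for 10 of the 41 genes (24.4%) in limma's F test for interaction of diet and day, where 9.82% of all genes and 14.8% of those with a mean of at least 5 passed. These were Postn, Lum, Thbs1, Col18a1, Lama2, Col6a1, Thbs2, Col6a2, Col6a3 and Dcn. A contrast set the mean effect of the late days 7, 10 and 17 against that of the early days 1, 2 and 3. It called 11 genes (26.8%), all higher late, against 6.2% of all genes and 9.65% of those with a mean of at least 5, and no gene was called lower late (background 3.51%), while 3 were without the arrays numbered 1 of days 1 and 2. The differences, late minus early, were those of Lum at 1.71, Postn at 1.16, Lama2 at 1.07, Col18a1 at 0.92, Thbs2 at 0.78, Col6a3 at 0.77, Col6a2 at 0.75, Col1a2 at 0.73, Col6a1 at 0.69, Dcn at 0.54 and Col3a1 at 0.38. Thbs1, Tnc and P4ha1, whose rise was largest early, read -0.47, -0.79 and -0.30 without a call. The calls of Col3a1 and Dcn were each lost in several settings that leave out 1 array, at 0.34 to 0.36 and 0.45 to 0.52, for instance CLA day 17 replicate 1. Both were also lost with median centring. That of Dcn was lost with quantile normalisation too. Those of Thbs2 and Col6a2 were lost with the most variable probe set. Without the arrays numbered 1 of days 1 and 2, the calls of Thbs2 and Col3a1 were lost.

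On the control diet itself none of the 41 genes differed between days by limma's F test over the 7 control groups (0.115% of all genes did). At an unadjusted p under 0.05 there were 2, and Tnc had the lowest adjusted p, 0.72.

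Related genes outside the set were read from lists of similar roles. Their counts stand beside the 18.7% of all genes higher and 19.8% lower over all days, or 28.8% and 29% of those with a mean of at least 5. Of 15 further genes of collagen processing, 7 rose (46.7%) and 1 fell (6.67%) over all days, with a median of 0.29. The lysyl hydroxylase Plod2 (1.45) and the procollagen protease enhancer Pcolce (0.74) had the largest rises, and its relative Pcolce2 fell (-0.53). Of 15 further basement membrane genes, 1 rose (6.67%), Lama1 (0.35), and 5 fell (33.3%), near the share of brighter genes, with Smoc2 (-1.16) and Col4a4 (-0.78) the furthest, and the median was -0.14. Of 22 further interstitial matrix genes, 5 rose (22.7%), led by the matricellular Ccn1 (1.96) and the elastic fibre gene Emilin1 (1.19), and 4 fell (18.2%), led by Matn2 (-1.16) and Prelp (-1.04), with a median of 0.00. Ccn1 also rose by 4.03 on day 1, where Thbs1 had its peak.

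Of 16 matrix receptors, 6 rose (37.5%) and 7 fell (43.8%) over all days, beside the same shares of all genes and of brighter genes, with a median of 0.14. The hyaluronan receptor Cd44 (3.33) and the syndecan Sdc1 (2.31), both also present on macrophages, rose the furthest. The integrin chains Itga1 (-1.31), a collagen receptor, and Itga7 (-0.82), a laminin receptor, fell the furthest. Itgb1, the beta chain that these integrins share, rose by 0.28.

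Markers of the cell types in the pad moved in the same arrays. Counts over all days stand again beside 18.7% of all genes higher and 19.8% lower. For genes with a mean of at least 5 these shares were 28.8% and 29%. No list was at background, and the dimmest marker of any list, Cnn1, had a mean of 3.57. Of 8 macrophage markers all rose over all days (median 1.60), with array means of the list of 8.27 to 10.83 with CLA and 7.93 to 9.28 on control, and Fcgr1 (3.47) and Cd68 (2.78) rose the furthest. Of 7 adipocyte markers all fell (median -1.43), with array means of 10.19 to 11.34 with CLA and 11.45 to 12.30 on control, so that the tissue's own markers were bright on all arrays, led by Lipe and Lep (-2.04 and -1.87). Of 8 endothelial markers 7 fell (87.5%, median -0.85), led by Cdh5 and Kdr (-1.26 and -1.21). The array means of this list were 5.58 to 6.70 with CLA and 6.48 to 7.42 on control. On day 17 the median was -1.73 for the adipocyte list, -0.71 for the endothelial list and -0.07 for the smooth muscle and pericyte list. The basement membrane median was -0.21 over all days and -0.05 on day 17.

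Of 7 fibroblast and progenitor markers 1 rose (14.3%), Thy1 (0.33), and 2 fell (28.6%), Pi16 (-0.43) and Dpt (-0.42). The median was 0.01, with array means of 8.51 to 9.71 with CLA and 8.83 to 9.20 on control. By day the median of the list was -0.15, 0.03, -0.27, -0.41, -0.09, 0.05 and 0.39 on the 7 days in turn. On days 10 and 17 only Pdgfra, a receptor of these cells, rose among the 7 (0.96 on day 10, 1.49 on day 17). On these days 3 and 1 of the 7 were below 0. The background of rises was 10% and 11.5%, or 15.4% and 17.8% at a mean of at least 5. Of 8 smooth muscle and pericyte markers 2 fell (25%), Cspg4 (-1.43) and Rgs5 (-0.97). The median was -0.34, with array means of 6.05 to 7.13 with CLA and 6.99 to 7.48 on control. Of 6 mesothelial markers 3 fell (50%), led by Upk3b (-0.62) and Krt19 (-0.59), with array means of 5.81 to 6.88 and 6.48 to 7.20. Of 6 skeletal muscle markers 2 fell (33.3%), Myl1 (-0.87) and Myh1 (-0.74), with array means of 5.37 to 9.38 and 6.41 to 10.27. The shares that fell in the fibroblast, smooth muscle and skeletal muscle lists were thus near the 29% of genes with a mean of at least 5. The part of these cell types in the matrix results was not tested.

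**Figure D5:**
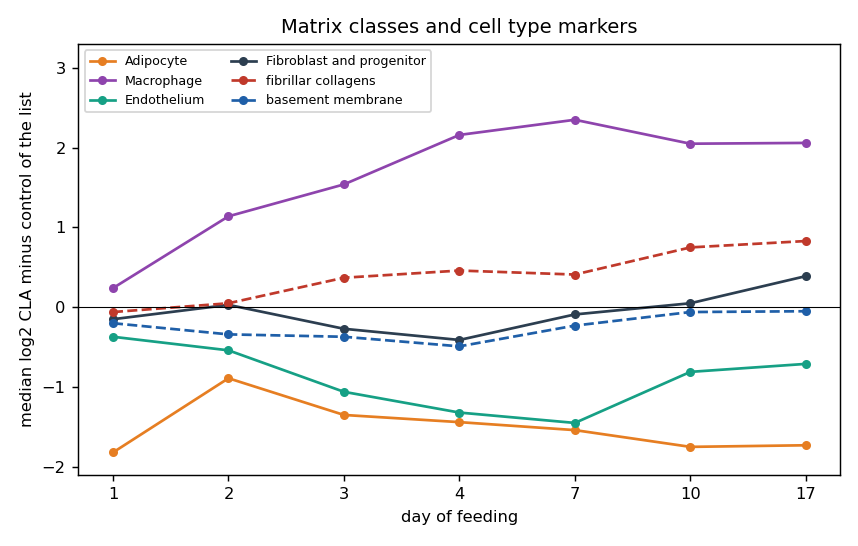
Median CLA minus control, on the log2 scale, of 4 lists of cell type markers (solid lines) and of the fibrillar and basement membrane genes (dashed lines) by day of feeding. The macrophage median climbs to about its final level by day 4, the endothelial median is lowest on day 7, and the fibroblast and progenitor median runs from -0.41 on day 4 to 0.39 on day 17.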

How the data were processed

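Arrays of pooled fat pads, 2 for each of 14 groups of diet and day, were read from the log2 probe-set values that the authors deposited. RMA, which corrects background, normalises by quantiles and summarises probes, is named in the submitters' processing notes without a version, and the genome build is not given in the sources used here. No filter was set on low values. Of 45101 probe sets, 34958 name 1 gene, 932 name several and 9211 none, and the brightest probe set by mean stands for each of the 18194 genes tested. The replicate number 2 is in the labels and the other array of a group was numbered 1.

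One model in limma 3.58.1 (R 4.3.3) with 14 groups and moderated variances gave the effect of CLA on each day, its interaction with day, the late minus early contrast and the F test over control groups. CLA minus control over all 7 days used the means of the 2 arrays of a group with day as a block. Two-sided p-values were adjusted over all genes tested (Benjamini and Hochberg), and an adjusted p under 0.05 makes a call. The script was tested on simulated data. Figures were drawn with matplotlib 3.10.9. The number of arrays, 2 in a group, limits the precision.

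All measured members are named. Values of every array are given for the 4 largest rises and 4 largest falls over all 7 days, the 3 lowest interaction p-values, and Col1a1, Col3a1, Col4a1, Col4a2, Lox, Fn1 and Tnc. Each day names its 3 largest called rises and falls, and each other list its 2 largest called rises and falls over all 7 days. The members, classes and lists were chosen with earlier results of these data known. Other probe set choices, filters, scalings, variance settings, blocks and left-out arrays or days were tried, and those with a block within each day, 1 replicate number alone, or the arrays numbered 1 of days 1 and 2 left out were chosen after seeing the data. Promoter windows came from RefSeq tables.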

Additional observations from a re-analysis of the deposited data

Results flagged for a closer look

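The effect of CLA differed between the 7 days for 10 matrix genes in limma's F test for interaction of diet and day. The adjusted p was 8.07e-06 for Postn, 8.62e-05 for Lum, 0.000239 for Thbs1, 0.000483 for Col18a1, 0.0113 for Lama2, 0.0156 for Col6a1, 0.0208 for Thbs2, 0.0276 for Col6a2, 0.0329 for Col6a3 and 0.0483 for Dcn. The matching effects by day are in the report.

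The effect on days 7, 10 and 17 exceeded the effect of the early days 1, 2 and 3 for 11 genes in limma. The log2 difference was 0.38 for Col3a1, 0.54 for Dcn, 0.69 for Col6a1, 0.73 for Col1a2, 0.75 for Col6a2, 0.77 for Col6a3, 0.78 for Thbs2, 0.92 for Col18a1, 1.07 for Lama2, 1.16 for Postn and 1.71 for Lum.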

How the results depend on the processing

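Of 104 calls of single genes in single comparisons, 41 held in each setting run for them. Over all 7 days Col1a2, Col5a2, Nid2, Bgn, Postn, Tnc, Thbs1 and Loxl1 held in all 47 settings, while Col12a1 held in 29, Col4a2 in 31, Col1a1 in 35 and Col6a3 in 37. Leaving out all genes with a mean under 5 cost none of the 104 calls, and averaging a gene's probe sets cost 19.

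Listed here are counts of matrix genes that moved by over 1.5 times and calls that changed sign. The fibrillar minus basement membrane gap is listed where it moved by at least the SD within groups of 0.18. With the most variable probe set the falls were 3 on day 1, 5 on day 3 and 1 on day 4, the fibrillar minus basement membrane gap was 1.21 on day 3, 1.33 on day 4, 1.07 on day 7, 1.53 on day 10, 1.61 on day 17 and 1.10 over all days, and Col14a1 on day 10 turned to -0.38. With the mean of a gene's probe sets the falls were 2 on day 2 and 5 on day 3, 1 gene was lower late, and the gap was 0.97 on day 3 and 1.01 on day 10. Without probe sets shared between transcripts the falls of day 4 were 1. The falls of day 2 were also 2 with a minimum mean of 5, median centring, quantile normalisation or either block. Median centring gave 4 falls on day 4 and 2 lower late, and quantile normalisation gave 8 rises on day 3, 5 falls on day 4 and 1 lower late.

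The difference between a group's arrays correlated between the diets at 0.098 to 0.566 by day, so that 6 of 7 days exceeded 0.1. Since not each day did, and the labels tie nothing to the numbers, the arrays were not taken as paired. The correlation was highest on day 1, at 0.566, and on day 2, at 0.490. With the number as a replicate block there were 8 rises on day 3 and 5 falls on day 4, and none of the 84 calls on single days or late minus early was lost. With a replicate block within each day there were 5 rises on day 2, 9 on day 3 and 11 on day 4, 9 falls on day 4, 4 on day 7 and 1 lower late, 16 genes passed the interaction and 2 differed among controls. Without the arrays numbered 1 of days 1 and 2, falls numbered 4, 3, 6 and 6 on days 1 to 4, rises 7 on day 2 and 10 on day 4, 3 genes were lower late, and the gap of day 2 was 0.61. Without day 10 there were 9 rises over all days. The gap was 0.61 on day 17 from class means and 0.18 on day 2 with multiplexins included. The causes were not tested.

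Leaving out 1 array at a time gave 3 to 8 falls on day 1, 0 to 4 rises and 0 to 3 falls on day 2, 3 to 6 and 0 to 4 on day 3, 3 to 8 and 1 to 4 on day 4, 3 to 7 and 0 to 1 on day 7, 9 to 17 and 0 to 2 on day 10, and 10 to 17 and 0 to 1 on day 17, and 0 to 1 lower late. The gap then ran from -0.43 to 0.60 on day 1, 0.24 to 0.60 on day 2, 0.72 to 0.98 on day 3 and 0.51 to 0.84 on day 7. A lone array left in a group is taken to vary like the others.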
